A study of Mus musculus with 4 samples.

Results

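The genes described here are the mouse splicing factors and heterogeneous nuclear ribonucleoprotein (hnRNP) genes, measured in B16-F10 cells that had been separated by the amount of the receptor Met on their surface. A gene was counted as a member when the accession of its array probe mapped to a mouse RefSeq symbol starting with Hnrnp or Snrp, or with Srsf, Sf3a, Sf3b, Prpf or Rbm followed by a digit. Where a gene had several probes the brightest was used, and a gene was kept when both Met-low arrays, or both Met-high arrays, read that probe well above background. Of 104 genes that had a named probe, 93 were kept, among 11963 genes kept from the whole array. The other 11 were Hnrnph3, Snrpn, Srsf12, Rbm11, Rbm24, Rbm31y, Rbm41, Rbm44, Rbm46, Rbm46os and Rbm47, and no ratio is given for them. Of the 93 genes, 92 were well above background on all 4 arrays, and the exception was Rbm3os, an RNA antisense to Rbm3. The kept genes fell into 19 hnRNP, 11 Snrp, 9 Srsf, 9 Sf3a or Sf3b, 13 Prpf and 32 Rbm genes.

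B16-F10 is a mouse malignant melanoma line that came from skin and is used as a model of metastasis. Cells growing as 1 culture line were sorted by flow cytometry into a Met-low and a Met-high population, and each population was then grown separately for 3 days before total RNA was taken. Each population was represented by 2 samples, and every sample was labelled with Cy3 and hybridised to its own 1-colour Agilent array. No treatment or introduced genetic change separated the populations, and whether they differed in their genomes was not measured. The sorted cells were pools rather than clones, and the arrays show the RNA present after the days in culture, not at the moment of sorting.

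Splicing removes introns from pre-mRNA. The spliceosome is built on each intron from small nuclear ribonucleoproteins (snRNPs): U1 binds the 5′ splice site, U2 binds the branch point, and the U4/U6 and U5 particles join as a tri-snRNP before the catalytic steps. The Snrp genes encode the Sm proteins and other core proteins of these particles, Sf3a and Sf3b encode subunits of U2, and Prpf genes encode factors that act from U1 recognition to catalysis. SR proteins (Srsf) and hnRNPs bind the transcript itself and influence which sites are used, and Rbm is a mixed group of RNA-binding proteins, some of which act outside splicing.

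Values are log2 intensities after subtraction of the array's own 75th percentile, so that 0 is the brightness of that percentile, and each ratio is the Met-high mean minus the Met-low mean on the log2 scale. Both the lowest and the highest share of spots well above background, 50.01% and 53.6%, came from Met-low, with Met-high between them at 52.0% and 52.3%, no spot was saturated, and the 75th percentile lay between 858 and 1331 intensity units. Across genes, the arrays correlated at 0.990 within each population and at 0.967 to 0.976 between them. Met itself read -0.26 and -0.89 in the Met-low samples and 1.03 and -0.43 in the Met-high samples, so its arrays overlapped, with a ratio of 0.87 (limma, SE 0.51, Benjamini-Hochberg adjusted p = 0.333). All 9 melanocyte markers were well above background on all 4 arrays, and their summed signal on the log2 scale was 10.8 and 10.5 in Met-low and 10.8 and 10.6 in Met-high. Among markers of other cell types, Ptprc and Lyz2 of leukocytes, Cdh5 and Tek of endothelium and Pdgfra and Dcn of fibroblasts were above background on no array. Cd3e and Itgam of leukocytes, Kdr of endothelium and Col1a2 of fibroblasts were above background on all 4 arrays, and Pecam1 and Krt14, both dim, on 3. The summed signals of leukocyte markers (1.64 to 2.07 on the log2 scale) and keratinocyte markers (-3.34 to -2.33) overlapped between the populations. The fibroblast sum was lower in Met-high, at -0.71 and -0.58 in Met-low and -1.78 and -1.71 in Met-high, and its 1 kept gene, Col1a2, had a ratio of -1.10 (limma, Benjamini-Hochberg adjusted p = 0.0311). The endothelial sum was 2.66 and 2.45 in Met-low and 3.08 and 2.75 in Met-high, without overlap, but it was almost wholly the signal of Kdr. Kdr alone measured 2.65 and 2.43 in Met-low and 3.07 and 2.73 in Met-high (ratio 0.36, limma, adjusted p = 0.301). Pecam1, the other kept endothelial marker, had a ratio of 0.07 (limma, adjusted p = 0.906). The part of these differences in the results below was not tested. All 4 arrays shared 1 slide, on which Met-low took positions 1 and 2 and Met-high positions 3 and 4, and an effect of position cannot be told apart from one of population.

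Of the splicing genes, 4 were lower in Met-high, and Rbm26, Rbm25 and Prpf4b are described here. Each of these lay between 3.05-fold and 3.51-fold below its Met-low level. The 4 genes made up 4.30% of the members, beside 3.84% of all genes called higher in Met-low by the same fit (limma over all 11963 genes, Benjamini-Hochberg adjusted p under 0.05), so the share was near the background. None of the 93 was called higher in Met-high by this fit, which had no replicate block, while 1.95% of all genes were. In that direction 15 members passed an unadjusted p of 0.05, and 1, Prpf31, passed after adjustment when limma's variance prior followed the signal level. With the replicate number as a block, 17 members were called higher in Met-high and 8 in Met-low. The share of all genes called by the block fit is not given here. The same 4 genes were also the only members past 2-fold in Met-low (4.30%, beside 5.32% of all genes), and none was past 2-fold in Met-high (2.45% of all genes). As the samples are bulk RNA, fewer cells that carry a transcript and less of it in each cell cannot be told apart.

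Rbm26 (NM_134077) encodes a zinc finger RNA-binding protein linked to the turnover of polyadenylated RNA in the nucleus. Its signal was -0.73 and -0.74 in the Met-low samples and -2.50 and -2.59 in the Met-high samples. The samples of each population lay close together and the populations were far apart. The ratio was -1.81 (SE 0.15, limma, Benjamini-Hochberg adjusted p = 0.00836). A separate Rbm26 probe gave -0.98 and -0.57 in Met-low and -2.80 and -2.78 in Met-high, a ratio of -2.02 (SE 0.20, limma, adjusted p = 0.0181 over all probes).

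Rbm25 (NM_027349) encodes a U1-associated regulator of alternative splicing that is known for its effect on the choice of 5′ splice site in the apoptosis gene Bcl2l1. It had the widest spread within populations of the 3 genes, at -0.29 and 0.26 in Met-low and -2.02 and -1.37 in Met-high. The populations did not overlap, and the ratio was -1.68 (SE 0.30, limma, Benjamini-Hochberg adjusted p = 0.0432). This call sat close to the threshold, since the adjusted p was 0.0581 after quantile normalization and 0.0514 when the probes of each gene were averaged.

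Prpf4b (NM_013830) encodes a nuclear kinase that phosphorylates tri-snRNP proteins during spliceosome assembly. It measured -1.60 and -1.11 in Met-low and -3.03 and -2.90 in Met-high, with no overlap. The ratio was -1.61 (SE 0.22, limma, Benjamini-Hochberg adjusted p = 0.0221). Its other probe gave a ratio of -1.95 but had a wide spread in Met-high, at -2.83 and -4.32, and did not pass (SE 0.54, limma, adjusted p = 0.123 over all probes).

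The calls of Rbm26, Rbm25 and Prpf4b were kept when any 1 array was left out, with Benjamini-Hochberg adjusted p values in limma from 0.00348 to 0.0449, and with only 1 sample left in a population that sample is assumed to vary like the other pair. They were all lost when dim probes were not removed and the fit ran over 20832 genes (adjusted p = 0.0747 for Rbm26, 0.121 for Prpf4b and 0.181 for Rbm25).

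**Figure D1:**
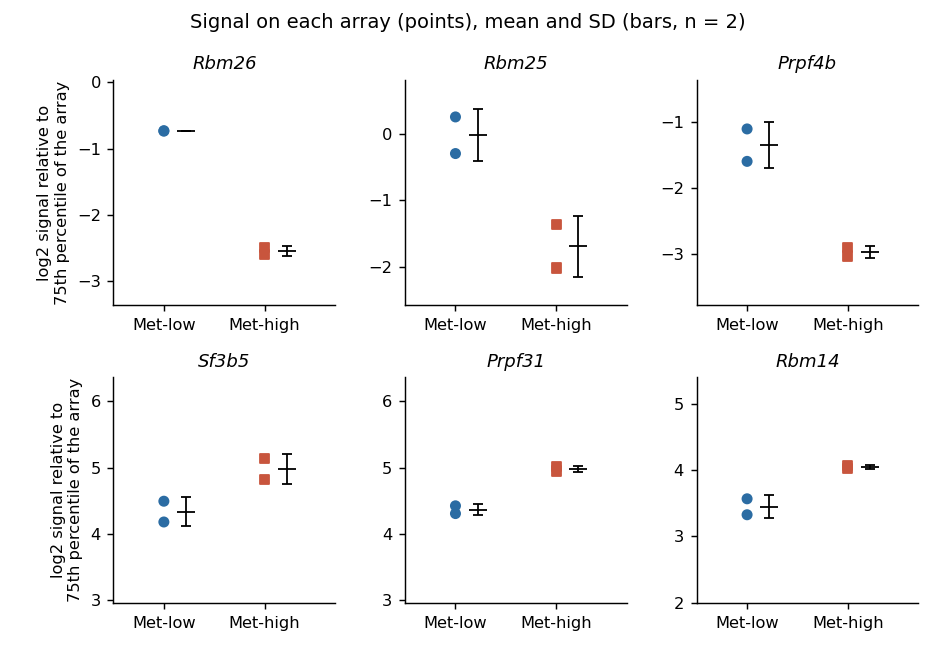
Log2 signal relative to the 75th percentile of the array (vertical axis, 1 panel per gene) for Rbm26, Rbm25 and Prpf4b and for the 3 genes with the highest ratios, with 1 point per array and the mean and SD of each population beside it (n = 2). In the upper row the Met-high points lie 1.61 to 1.81 below the Met-low points by their means, and in the lower row the Met-high means lie 0.60 to 0.64 above.

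The stretch before the transcription start is printed for Prpf4b, Rbm25 and Rbm26, since they moved together and a reader may want to compare what lies upstream of them. The windows are from RefSeq on assembly GRCm38.p6, run 5′ to 3′ in the direction of the gene and hold the 250 bases before the start. Prpf4b is at chr13:34875279-34875528 on the plus strand, Rbm25 at chr12:83635460-83635709 on the plus strand and Rbm26 at chr14:105177315-105177564 on the minus strand. Capitals mark matches, on either strand, to 7 motifs that were searched: the CCAAT box CCAAT, the ETS core CCGGAA, the GC box GGGCGG, the E-box CACGTG, the CRE TGACGTCA, the YY1 motif AAGATGG and the TATA box TATAAA. None of these motifs contains another.
Prpf4b: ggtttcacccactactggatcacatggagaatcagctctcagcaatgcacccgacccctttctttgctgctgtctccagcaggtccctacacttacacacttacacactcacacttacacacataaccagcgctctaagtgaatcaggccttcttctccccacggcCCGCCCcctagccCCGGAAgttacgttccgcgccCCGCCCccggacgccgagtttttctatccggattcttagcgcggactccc
Rbm25: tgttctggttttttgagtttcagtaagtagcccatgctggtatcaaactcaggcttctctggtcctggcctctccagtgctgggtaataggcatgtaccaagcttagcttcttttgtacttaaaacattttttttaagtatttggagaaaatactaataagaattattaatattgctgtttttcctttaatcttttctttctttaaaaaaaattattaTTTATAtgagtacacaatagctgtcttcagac
Rbm26: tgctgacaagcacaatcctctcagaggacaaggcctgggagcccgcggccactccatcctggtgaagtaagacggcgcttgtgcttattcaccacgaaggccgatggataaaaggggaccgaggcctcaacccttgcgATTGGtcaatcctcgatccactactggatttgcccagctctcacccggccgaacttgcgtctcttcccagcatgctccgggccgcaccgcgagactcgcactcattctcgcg
The 3 windows differed. The Prpf4b window held 1 ETS core and 2 GC boxes at 57.2% GC, the Rbm26 window 1 CCAAT box at 59.6% GC, and the Rbm25 window 1 TATA box at 32.4% GC and not 1 CpG. No motif was shared by all of them. Rbm25 had the lowest GC content among the 97 windows found for 78 of the members, whose median was 60.4%, beside 59.6% for windows of all kept genes.

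Across the 97 member windows, each of the 250 bases before a start, the motifs can be set beside their share in windows of the same length. The windows came from 78 members. Overlapping windows of genes with nearby starts were counted separately, so some bases count more than once. The ETS core was in 40.2% of member windows, in 21.5% of the windows of kept genes and in 12.0% of all 32851 windows. The CCAAT box was in 47.4% of member windows, beside 35.4% and 33.8%. The E-box was in 12.4%, beside 8.37% and 6.02%. The GC box was in 54.6% of member windows and 56.4% of those of kept genes, so there the members were near the other genes of these cells. The CRE (2.06% of member windows, 2.57% of kept genes' windows) and the YY1 motif (3.09%, beside 4.35%) were rare in both, as was the TATA box (9.28%, beside 6.80%). These are matches of letters, and no binding was measured.

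Apart from the 4 genes, most members had a higher mean in Met-high, by small amounts. The mean was higher in Met-high for 66 of the 93 (71.0%, beside 59.5% of all genes), and both Met-high arrays were above both Met-low arrays for 46 (49.5%, beside 35.7% of all genes). The mean was higher in Met-low for the other 27 (29.0%, beside 40.5%), 12 of them without overlap (12.9%, beside 22.6%). The median ratio was 0.20, beside 0.10 over all genes, and the ratios ran from -1.81 to 0.64. Members passing an unadjusted p of 0.05 numbered 15 with a higher mean in Met-high (16.1%, beside 14.3% of all genes) and 5 in Met-low (5.38%, beside 11.9%). This lean depended on the scaling: with the 75th percentile taken over probes detected on all arrays, the median of all genes moved from 0.10 to -0.05 and the median of the members to 0.049, and 53 members were higher in Met-high and 40 in Met-low. Both percentile scalings subtract a constant from each array, so they cannot change the distance of the members' median from that of all genes, which was 0.10. After quantile normalization, which can change it, the members' median was 0.03 higher. The SE of a single member's ratio was 0.18 at the median, so that ratios of this size lie near the precision of 2 arrays a group.

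**Figure D2:**
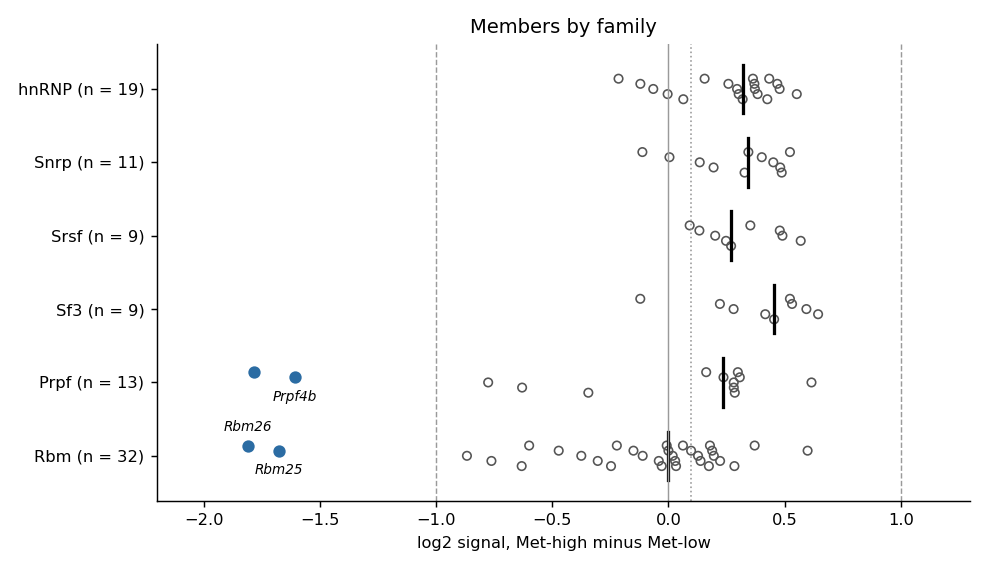
Log2 ratio of Met-high over Met-low for each of the 93 members, by gene family, with 1 point per gene, filled where it passed the test, and a short bar at the median of the family. Dashed lines mark 2-fold and the dotted line marks the median of all genes. The 4 called genes, all below -1.6, belong to the Prpf and Rbm families, and the Srsf points run from 0.09 to 0.57.

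The hnRNP genes encode abundant nuclear proteins that coat pre-mRNA. Of 19 measured, 15 had a higher mean in Met-high (78.9%, beside 59.5% of all genes), or 14 with either of the other scalings. The arrays of 12 did not overlap in that direction (63.2%, beside 35.7% of all genes), and none passed the test. The median ratio was 0.32 and the range -0.21 to 0.55. Hnrnpul1, an RNA-binding protein related to Hnrnpu, measured -0.36 and -0.06 in Met-low and 0.21 and 0.48 in Met-high (ratio 0.55, SE 0.20, limma, Benjamini-Hochberg adjusted p = 0.160). Hnrnpu, also called scaffold attachment factor A, measured 2.62 and 3.04 in Met-low and 3.06 and 3.55 in Met-high, with the nearest samples almost touching (ratio 0.48, SE 0.25, adjusted p = 0.288). Hnrnpa3, of the hnRNP A/B group, was the 1 gene of the family separated in the other direction, at 6.11 and 6.22 against 6.02 and 6.07. Its ratio of -0.12 (SE 0.16, limma, adjusted p = 0.654) was smaller than its SE. The SDs of its own samples were lower, at 0.073 in Met-low and 0.030 in Met-high.

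Of the 11 Snrp genes, 10 had a higher mean in Met-high (90.9%, beside 59.5% of all genes). With the percentile over detected probes 8 did, and after quantile normalization 9. The arrays of 5 did not overlap in that direction (45.5%, beside 35.7% of all genes). The median ratio was 0.34 and the range -0.11 to 0.52. None passed the test. The 7 genes of the Sm ring, the protein ring around the snRNA that U1, U2, U4 and U5 share, had a median of 0.33, and the lowest, Snrpd3, had overlapping arrays and a ratio of 0.0048, far below its SE of 0.23. Snrpf, an Sm ring protein, measured 3.57 and 3.82 in Met-low and 4.12 and 4.31 in Met-high (ratio 0.52, SE 0.18, limma, Benjamini-Hochberg adjusted p = 0.150). Snrpa1, the U2 protein A′, measured 3.16 and 3.27 in Met-low and 3.64 and 3.77 in Met-high (ratio 0.49, SE 0.16, adjusted p = 0.140). In both genes the Met-high samples were above the Met-low samples.

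The Sf3 genes, subunits of the U2 complexes that hold the branch point, had the highest median of the 6 families at 0.46. For 8 of 9 the Met-high arrays were above the Met-low arrays (88.9%, beside 35.7% of all genes). The nearest samples almost touched in Sf3a2 (3.72 in Met-low, 3.73 in Met-high) and lay close in Sf3a3 (3.89 and 3.95). With either of the other scalings the mean was still higher in Met-high for 8, but overlap was counted with the main scaling only. None passed the test. Sf3b5, a small SF3b subunit, had the highest ratio of all members, at 4.18 and 4.49 in Met-low and 4.82 and 5.14 in Met-high (ratio 0.64, SE 0.20, limma, Benjamini-Hochberg adjusted p = 0.133). Sf3a1, the large SF3a subunit, measured 3.48 and 3.46 in Met-low and 3.997 and 4.13 in Met-high (ratio 0.59, SE 0.16, adjusted p = 0.0959). The exception in the family was Sf3b6, a branch point protein, whose arrays overlapped at 3.14 and 3.37 in Met-low and 3.08 and 3.19 in Met-high.

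All 9 Srsf genes had a higher mean in Met-high (beside 59.5% of all genes), or 7 of 9 with the percentile over detected probes or after quantile normalization. The arrays of 6 did not overlap (66.7%, beside 35.7% of all genes). The median was 0.27 and the range 0.09 to 0.57, and again none passed the test. Srsf9, an SR protein that regulates exon choice, measured 3.17 and 3.07 in Met-low and 3.57 and 3.80 in Met-high (ratio 0.57, SE 0.17, limma, Benjamini-Hochberg adjusted p = 0.120). Srsf2, an SR protein known as a marker of nuclear speckles, measured 1.59 and 1.83 in Met-low and 2.07 and 2.33 in Met-high (ratio 0.49, SE 0.19, adjusted p = 0.178).

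The Prpf family was split. Besides Prpf4b, which passed the test, Prpf39 and Prpf40b read higher on each Met-low array than on either Met-high array. The opposite order held for 5 of the 13 (38.5%, beside 35.7% of all genes). The 5 genes of the tri-snRNP, Prpf3, Prpf4, Prpf6, Prpf8 and Prpf31, all had a higher mean in Met-high, with a median ratio of 0.29. Prpf31, a U4/U6 protein whose human counterpart is mutated in retinitis pigmentosa, measured 4.42 and 4.31 in Met-low and 4.95 and 5.01 in Met-high (ratio 0.62, SE 0.16, limma, Benjamini-Hochberg adjusted p = 0.0879). It passed with the variance trend, at an adjusted p of 0.0440. Prpf18, a factor of the second catalytic step, measured 0.30 and 0.44 in Met-low and 0.60 and 0.74 in Met-high (ratio 0.30, SE 0.16, adjusted p = 0.303).

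The 32 Rbm genes had no common direction. The mean was higher in Met-high for 16 (50%, beside 59.5% of all genes) and in Met-low for 16 (50%, beside 40.5%). The arrays of 10 did not overlap with Met-high above (31.25%, beside 35.7% of all genes). Those of 7 did not overlap with Met-low above (21.9%, beside 22.6%), so neither share exceeded that of all genes. The median ratio was near 0. With the percentile over detected probes, the median was -0.15, and 8 were higher in Met-high and 24 in Met-low. Among those higher in Met-high without overlap the largest difference was in Rbm14, a coactivator found in paraspeckles, which measured 3.56 and 3.32 in Met-low and 4.06 and 4.02 in Met-high, with a ratio of 0.60 short of the threshold (SE 0.17, limma, Benjamini-Hochberg adjusted p = 0.109). Rbm19, which acts in ribosome biogenesis rather than splicing, measured 2.96 and 2.76 in Met-low and 3.29 and 3.17 in Met-high (ratio 0.37, SE 0.17, adjusted p = 0.235).

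The direction of a member's ratio went with the brightness of its probe. Of 23 members whose mean signal was below the 75th percentile, 18 had a higher mean in Met-low, the 4 called genes were among them, and the median ratio was -0.34. Of 70 members above the percentile, 61 had a higher mean in Met-high, 43 without overlap, none was called, and the median was 0.28. Over all genes, 67.0% of those above the percentile had a higher mean in Met-high, 42.3% without overlap, with a median of 0.15, and below it 49.3% had a higher mean in Met-low, with a median of 0.01. Of all genes below the percentile 6.88% were called higher in Met-low, beside 17.4% of the 23 members. Whether signal level had a part in the members' directions was not tested.

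**Figure D3:**
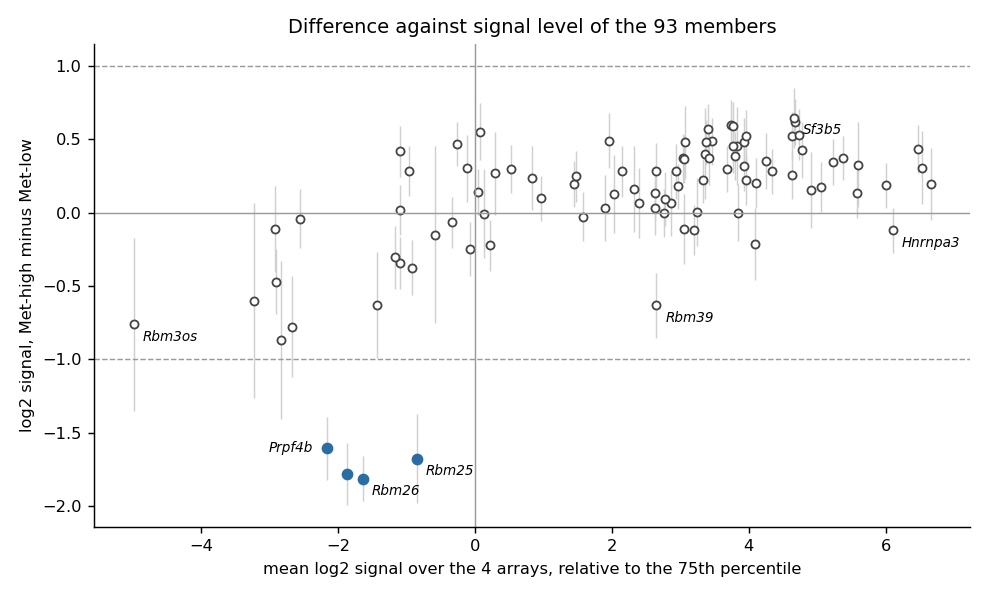
Log2 ratio of Met-high over Met-low against the mean log2 signal over the 4 arrays for the 93 members, with 1 point per gene and its SE as a bar, a vertical line at the 75th percentile of the array (0) and dashed lines at 2-fold. Filled points passed the test. The 4 called genes lie to the left of the line, where the median of 23 genes is -0.34, and the 70 genes to the right have a median of 0.28.

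Several probes past the filter were available for 34 members. No gene had probes that differed by over 1 on the log2 scale, and the median gap between the lowest and the highest ratio of a gene was 0.13. In 6 genes the probes differed in sign: Rbm33, Hnrnpul1, Hnrnpf, Srsf10, Hnrnpdl and Hnrnpc. Rbm33 had the widest gap, 0.84, between a ratio of 0.03 for the brighter probe and -0.81 for a dim one. For Hnrnpul1 the brighter probe (NM_144922) gave 0.55 and the other (NM_178089) gave -0.23, with no call for either, so the higher Hnrnpul1 mean described above belongs to 1 probe. Hnrnpa3 had 7 probes, all with a ratio below 0, from -0.12 for the brightest to -0.58, and no probe passed the test. The array names do not say which isoforms each probe detects.

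**Figure D4:**
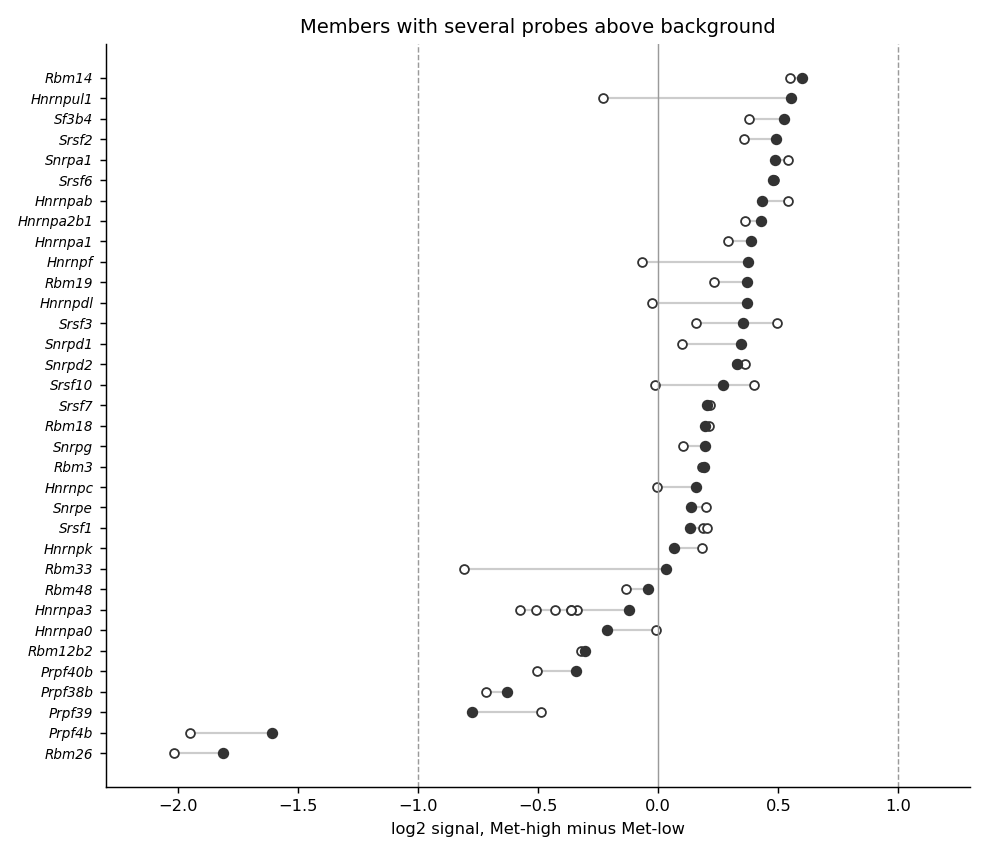
Log2 ratio of each probe for members with several probes, with 1 point per probe, filled for the brightest, and a line joining the probes of a gene. Both probes of Rbm26 and both of Prpf4b lie below -1.6, all 7 probes of Hnrnpa3 lie below 0, and Rbm33 and Hnrnpul1 show the widest gaps across 0.

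Of 162 other genes of the splicing pathway, listed by function, 150 were kept. Their mean was higher in Met-high for 107 (71.3%, beside 59.5% of all genes) and in Met-low for 43 (28.7%, beside 40.5%). With the percentile over detected probes these counts were 93 and 57. Without overlap were 79 and 21 (52.7% and 14.0%, beside 35.7% and 22.6% of all genes). The median ratio was 0.23, beside 0.20 for the members and 0.10 over all genes. By role, the medians were 0.40 for Lsm proteins, 0.37 for other snRNP proteins, 0.26 for branch point factors and for the exon junction complex, 0.25 for the SMN complex, 0.24 for tissue regulators, 0.18 for the Prp19 complex and step factors and 0.03 for SR kinases, Tra2 and related proteins. The call rule took 1 of them, Mbnl2, as higher in Met-low (0.667%, beside 3.84% of all genes) and none in Met-high (1.95% of all genes), where 25 passed an unadjusted p of 0.05 (16.7%, near the 14.3% of all genes).

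Mbnl2 (NM_175341), a muscleblind regulator of alternative exons, measured 2.34 and 1.99 in Met-low and 1.09 and 0.97 in Met-high, with no overlap. Its ratio was -1.14 (SE 0.19, limma, Benjamini-Hochberg adjusted p = 0.0361). The call was lost without Met-low replicate 1 (adjusted p = 0.0924) and without Met-high replicate 2 (adjusted p = 0.0630). Luc7l3, a U1-associated protein of the Luc7 family, was past 2-fold in the same direction, at 1.42 and 2.25 in Met-low and -0.27 and 0.56 in Met-high, with a wide spread (ratio -1.69, SE 0.39, limma, adjusted p = 0.0733). It passed without Met-low replicate 1 (adjusted p = 0.0131) and without Met-high replicate 2 (adjusted p = 0.00972).

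In the other direction, 2 genes were past 2-fold. Snrnp35, a protein of the U11/U12 particle of the minor spliceosome, measured 1.45 and 2.04 in Met-low and 2.63 and 3.05 in Met-high (ratio 1.09, SE 0.27, limma, Benjamini-Hochberg adjusted p = 0.0828). Lsm11, a protein of the U7 particle that processes histone pre-mRNA, measured -1.60 and -0.93 in Met-low and -0.62 and 0.23 in Met-high (ratio 1.07, SE 0.37, adjusted p = 0.151). Snrnp35 passed without Met-low replicate 2 (adjusted p = 0.0303) and without Met-high replicate 1 (adjusted p = 0.0403), and Lsm11 passed without Met-high replicate 1 (adjusted p = 0.0280).

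**Figure D5:**
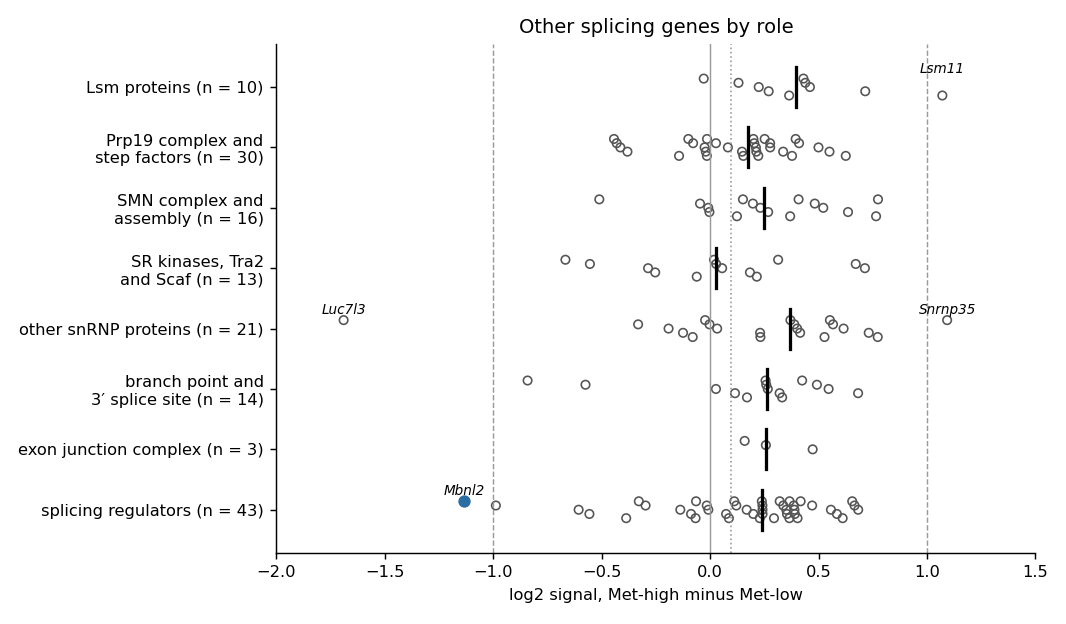
Log2 ratio of Met-high over Met-low for 150 other splicing genes, grouped by role, with 1 point per gene, filled where it passed the test, a short bar at the median of each role, dashed lines at 2-fold and a dotted line at the median of all genes. The medians lie between 0.03 and 0.40, Mbnl2 and Luc7l3 lie below -1, and Snrnp35 and Lsm11 lie above 1.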

How the data were processed

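Total RNA of 2 Met-low and 2 Met-high samples of sorted B16-F10 cells carried the dye Cy3 on 1-colour Agilent mouse arrays. The authors scanned the arrays and extracted spots with Agilent Feature Extraction (version 11.0.1.1 in the file headers, 10.7.3.1 in the submitters' processing notes), and the deposited scanner files hold processed signal intensity after the background correction of that software. The deposited series table holds log2 values, which lay within 0.01 of the centred scanner values for 93.5% to 100% of 39297 probes on each array and served as an alternative. Groups were taken from the sample labels. All values were recomputed from 43020 spots per array, without control spots. The log2 of each spot was taken and the 75th percentile over all these spots of the array subtracted. Outlier spots were then left out and the log2 values of a probe's spots averaged.

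Probes were named by matching accessions to RefSeq gene records (27427 of 39429 matched). The gene's brightest probe was kept if it was well above background on both arrays of a population. Array names carry no coordinates here, because the build in the file headers differs from that of the gene records.

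Populations were compared with limma 3.58.1 in R 4.3.3 (lmFit, eBayes), without covariates, over all 11963 genes, with Benjamini-Hochberg adjustment and a threshold of 0.05. The fit was tested on simulated data. The p values rest on the spread between 2 independently prepared samples a population, and the number of arrays limits the precision. In eBayes the variance of each gene is drawn towards a value estimated from all genes. An SE can therefore exceed what a gene's own samples show, and the lowest SE of a member was 0.15. The genes named were members past the adjusted threshold or 2-fold, in each family the 2 genes with the largest difference in each direction whose arrays did not overlap, members with discordant probes, and listed splicing genes past either threshold. The values of 1 called member and of 1 marker are not reported here. The members and lists were chosen with earlier results of these data known. Alternatives were normexp background correction (offset 50), quantile normalization, the percentile over detected probes, other filters, flagged spots kept, probe averaging, every probe by itself, the authors' values, a replicate block, a variance trend, the t-test of the study's methods and leaving out each array. For the other splicing genes and the probe comparison these were added after seeing the data.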

Additional observations from a re-analysis of the deposited data

How the results depend on the processing

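The calls of Rbm26, Rbm25 and Prpf4b were kept with normexp correction, the percentile over detected probes, flagged spots kept, the authors' values and a variance trend. Rbm25 was lost with quantile normalization, averaged probes and every probe by itself (3 of the 4 calls kept in each). With no filter on dim probes, members called higher in Met-low fell to 0 and those past 2-fold were 7, and other splicing genes called higher in Met-low fell to 0, over 20832 genes. The median ratio of the members was 0.10 with quantile normalization and 0.049 with the percentile over detected probes. A variance trend called 1 member higher in Met-high, and of the other splicing genes 2 as higher in Met-low and 7 in Met-high. The methods' t-test called 0 members and 0 other splicing genes higher in Met-low after Benjamini-Hochberg adjustment. Unadjusted, it took 15 members as higher in Met-high, and of the other splicing genes 6 as higher in Met-low and 21 in Met-high. For the other splicing genes, the count higher in Met-low was 4 with the percentile over detected probes, 2 with only genes above background on all arrays, and 0 with averaged probes or every probe by itself, and normexp gave 2 higher in Met-high. Leaving out 1 array at a time gave 4 to 5 members called higher in Met-low (Rbm27 was added without Met-high replicate 1 and Rbm3os without Met-high replicate 2), 5 to 6 past 2-fold, a median of 0.19 to 0.23, and 0 to 3 other splicing genes called higher in Met-high (1 without Met-low replicate 2 and 3 without Met-high replicate 1). The replicate numbers were not treated as pairing the samples, since the labels mark no shared batch and there were 2 pairs, although the replicate 1 minus replicate 2 differences of the populations correlated at 0.54 over 11963 genes and 0.70 over the 93 members. With the number as a replicate block, 8 members were called higher in Met-low, the main 4 among them, and 17 in Met-high. Of the other splicing genes the block fit called 11 and 32. The share of all genes called under each alternative is not given here, so these counts are not read as a result about the members. The sign of no named gene's ratio turned under these alternatives, but for every probe by itself only the brightest probe of a named gene was followed. That setting could therefore not show a turn between probes, and the other Hnrnpul1 probe had a ratio of -0.23. Scaling turned the sign of other genes: with the percentile over detected probes, 53 members had a higher mean in Met-high in place of 66. The median of all genes was then -0.05 in place of 0.10. Of the values of single named genes, 313 kept their side of the threshold, 18 dropped below it and 26 moved past it. Dim probes limit Rbm3os and the 11 genes that were not kept, whose signal was near background.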

Other observations

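Other proteins associated with the U1 snRNP, which help U1 to settle on 5′ splice sites, were looked at after the values of Rbm25 and Luc7l3 were seen. Prpf39 measured -2.75 and -1.83 in Met-low and -3.27 and -2.86 in Met-high (ratio -0.78, limma, Benjamini-Hochberg adjusted p = 0.230), and Prpf40b had a ratio of -0.34 (adjusted p = 0.281). Luc7l stood on the other side, with a ratio of 0.57 (adjusted p = 0.190), and the arrays of Luc7l2 overlapped at a ratio of 0.37. The proteins of the U1 core had ratios above 0, namely 0.40 for Snrpa, 0.48 for Snrpc and 0.77 for Snrnp70, none of which passed the test (adjusted p = 0.451, 0.148 and 0.0810). No test of these genes as a group was made.

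Other members with a low ratio in Met-high were Rbm39 and Rbm27. Rbm39, a splicing coactivator that is the target of aryl sulfonamide degraders, measured 2.70 and 3.23 in Met-low and 2.31 and 2.36 in Met-high without overlap (ratio -0.63, limma, Benjamini-Hochberg adjusted p = 0.156). Rbm27, the paralogue of Rbm26, measured -2.02 and -2.78 in Met-low and -2.52 and -4.02 in Met-high, so its arrays overlapped (ratio -0.87, adjusted p = 0.358). Both were chosen after their values were seen.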
